A study of Mus musculus with 4 samples.

Results

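Otx2, Foxd3, Pou3f1, Sall2, Zic2, Zic5 and Tcf15 encode transcription factors of the formative and primed epiblast, and their RNA was measured by sequencing in E14 mouse embryonic stem cells before and after exposure to all-trans retinoic acid (ATRA). The 7 genes were chosen by symbol, as a list of factors known from that stage, and all 7 were found among the 23420 genes of the count tables. E14 is an established mouse embryonic stem cell line. It was grown without feeder cells in serum medium with leukaemia inhibitory factor, a cytokine that holds such cells undifferentiated. The control group held 2 libraries of E14 cells at 0 h, and the ATRA group held 2 libraries of E14 cells after 24 h with 1 µM ATRA. No genotype other than that of E14 is given for either group. The labels name dimethyl sulfoxide as the vehicle without saying whether the 0 h cells received it, so exposure to ATRA and 24 h of further culture cannot be told apart. The labels do not tie the replicates to separate cultures, and a p-value here therefore reflects library-to-library variation that could be purely technical.

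Embryonic stem cells resemble the naive epiblast of the early embryo. Before germ layers can be formed, the naive programme is replaced by a formative one, in which Otx2 works with the core factor Oct4 (Pou5f1) at newly used enhancers and Foxd3, Zic2, Pou3f1 (Oct6) and Tcf15 accompany or prime the change. Several of these factors are used again later, Otx2 in forebrain and midbrain, Zic2 and Zic5 in the dorsal neural tube, Foxd3 in neural crest, and Tcf15 in somites. Retinoic acid acts through nuclear receptors that bind DNA as pairs with a retinoid X receptor, and it drives stem cells out of pluripotency while favouring posterior over anterior neural identity.

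Otx2 and Foxd3 fell, Sall2 and Zic5 passed edgeR's test after but not before a correction for base composition, and Zic2, Pou3f1 and Tcf15 passed it neither way. For the 4 genes that passed in either fit, the sequence just upstream of a transcription start is shown, so that the DNA in front of each start can be set beside its response. Sequences are RefSeq's for GRCm38.p6, 5′ to 3′ on the gene's own strand, ending at the base before the start, and capitals mark a searched motif. No other RefSeq windows are shown for Otx2, which has 4, or Sall2, which has 2, because the window printed is the one that overlaps no annotated exon. For both genes that window belongs to a start inside the gene span given below, and which start the cells used was not tested. The Zic5 window is cut to the 231 bases that lie clear of an exon.
Otx2, chr14:48667645-48667894, minus strand: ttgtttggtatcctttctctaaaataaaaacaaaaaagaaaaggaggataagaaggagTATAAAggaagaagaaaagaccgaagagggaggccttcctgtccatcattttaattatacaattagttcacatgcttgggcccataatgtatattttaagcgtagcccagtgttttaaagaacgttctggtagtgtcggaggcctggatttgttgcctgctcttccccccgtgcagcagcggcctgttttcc
Foxd3, chr4:99656049-99656298, plus strand: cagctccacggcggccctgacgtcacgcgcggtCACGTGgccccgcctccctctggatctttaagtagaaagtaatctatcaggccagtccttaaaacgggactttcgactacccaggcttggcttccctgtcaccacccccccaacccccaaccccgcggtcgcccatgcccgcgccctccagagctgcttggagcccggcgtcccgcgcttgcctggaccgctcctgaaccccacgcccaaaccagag
Sall2, chr14:52316324-52316573, minus strand: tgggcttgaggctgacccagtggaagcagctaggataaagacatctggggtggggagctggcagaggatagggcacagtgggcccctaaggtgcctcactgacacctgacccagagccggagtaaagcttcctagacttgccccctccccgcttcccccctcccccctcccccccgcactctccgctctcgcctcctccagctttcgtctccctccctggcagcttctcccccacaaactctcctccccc
Zic5, chr14:122465678-122465908, minus strand: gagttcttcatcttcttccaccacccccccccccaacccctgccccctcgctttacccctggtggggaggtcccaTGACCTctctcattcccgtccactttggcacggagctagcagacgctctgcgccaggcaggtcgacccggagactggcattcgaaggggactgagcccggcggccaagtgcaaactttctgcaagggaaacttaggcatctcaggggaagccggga

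Windows of 250 bases were searched on both strands for 5 short motifs. AGGTCA is the half-site of retinoid receptors, and direct repeats of it with 1, 2 or 5 bases between the copies were searched too. TAATCC is the core bound by Otx proteins, and ATGCAAAT is the octamer bound by POU factors. TATAAA is a core promoter element, and CACGTG is a form of the E-box. The Otx2 window holds TATAAA 192 bases before the start, a motif found in 12.4% of 32817 RefSeq windows of the same length. The Foxd3 window holds CACGTG 217 bases before the start, against 6.02% of windows. The Zic5 window holds AGGTCA on the opposite strand, read here as TGACCT, 175 bases before the start, against 14.0% of windows. The Sall2 window holds none of them. The Otx core and the octamer occur in 6.25% and 1.60% of all windows and the direct repeats in at most 0.0335%, and none is in a printed window. Of the windows not printed, 1 of Otx2 holds TAATCC 211 bases before its start and 1 of Sall2 holds TATAAA 145 bases before its start. No 2 motifs overlap in the printed windows. The windows of Foxd3, Sall2 and Zic5 have a GC content of 65.6%, 64.4% and 62.4% and that of Otx2 has 42.0%, against a median of 52.4% over all windows. The Otx2 windows not printed have 48.4% to 53.6%, and that of Sall2, near the gene's 5′ end, has 28.0%. A match to a few letters is a description of the sequence and not a bound site.

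In GENCODE M21 (GRCm38), 4 of the 7 genes lie on chromosome 14. Otx2 occupies chr14:48657677-48673819 on the minus strand with 6 exons in its longest coding transcript, and Sall2 chr14:52311172-52328762 on the minus strand with 2. Zic5 (chr14:122456795-122465677, minus strand) and Zic2 (chr14:122475435-122479852, plus strand) are neighbours that point away from each other, their starts 9.76 kb apart. Foxd3 (chr4:99656299-99658622) and Pou3f1 (chr4:124656807-124660655) are single-exon genes on the plus strand of chromosome 4, and Tcf15 lies at chr2:152143561-152149097 on the plus strand. Whether the counting used strand is not given in the sources used here. Otx2os1, which overlaps Otx2 on the other strand, had 1 count in a single control library and 0 in the other 3. The antisense gene at Pou3f1 has no row in the tables.

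Between 11086233 and 31005634 reads per library were counted in genes, and both ATRA libraries were shallower than both controls. Retinoic acid targets checked the labels: Cyp26a1, Rarb and Stra8 all rose, by log2 fold changes of 4.94 to 7.80. The ATRA libraries differed from each other with base composition. Among genes in the lowest of 10 bins of transcript GC content, ATRA replicate 2 over replicate 1 had a median log2 ratio of 0.85, and in the highest bin it was -1.31, against -0.01 and -0.31 for the controls. Across genes, which are not independent replicates, Spearman's rho of that ratio with GC was -0.78 in the ATRA pair and -0.30 in the control pair. Fold changes with ATRA also ran with GC, from a median log2 value of 1.03 in the lowest bin to -1.72 in the highest. Results on the 7 factors are therefore given from counts as deposited and again after a GC correction of each library. The correction takes out any trend with GC, so a response to ATRA that runs with GC would be taken out too. Technical and biological parts of the trend cannot be told apart here, and which fit lies nearer to the cells' RNA was not tested. Transcript GC is 65.8% for Tcf15, 65.1% for Foxd3, 63.9% for Pou3f1, 59.9% for Zic2, 53.2% for Sall2, 49.8% for Zic5 and 46.8% for Otx2. The first 3 lie above 62.5%, the 99th percentile of genes, beyond which the correction was held constant, so their corrected values are the least certain.

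**Figure D1:**
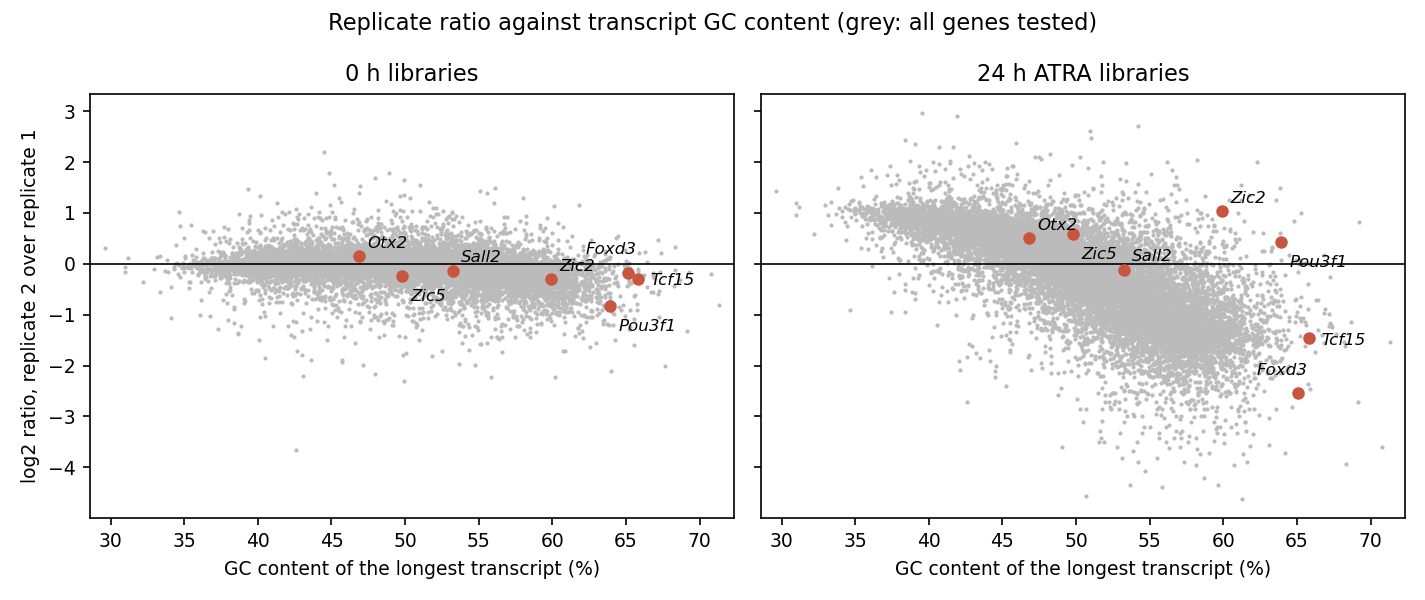
Log2 ratio of replicate 2 to replicate 1 (y axis) against GC content of the longest transcript in percent (x axis), for the control pair at left and the ATRA pair at right, with all tested genes in grey and the 7 factors in red. In the ATRA pair the grey cloud falls from a median of 0.85 in the lowest of 10 GC bins to -1.31 in the highest, while Zic2 at 1.03 and Pou3f1 at 0.42 lie above genes of like GC.

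At 0 h all 7 genes were expressed. Per kilobase of transcript and without correction, Zic2 had the highest level, with 21.6 and 17.6 CPM (read counts scaled to library size) per kb in the 2 controls, followed by Tcf15 with 15.3 and 12.4. Otx2 (10.6 and 11.7) came next, level at its lower library with the higher Pou3f1 library (10.6 and 5.98), and Sall2 (9.39 and 8.55) lay between the Pou3f1 libraries. Foxd3 (5.63 and 4.98) and Zic5 (3.36 and 2.85) were lowest, and did not overlap each other. After ATRA the order by mean changed to Sall2 (24.2 CPM per kb), Zic2 (16.0), Pou3f1 (4.28), Tcf15 (3.26), Zic5 (1.31), Otx2 (0.469) and Foxd3 (0.106). Pou3f1 and Tcf15 overlapped in that order, with libraries at 3.65 and 4.90 for the first and 4.83 and 1.68 for the second. Both orders changed with the GC correction. That correction is fitted to each library's deviation from the mean over all libraries, so a corrected 0 h level also depends on the ATRA libraries. It serves to compare libraries within a gene, and the corrected order of genes is only a description of that scale. At 0 h the corrected order by mean was Otx2 (12.7 CPM per kb), Zic2 (10.2), Sall2 (7.22), Tcf15 (6.52), Pou3f1 (3.78), Zic5 (3.11) and Foxd3 (2.51). In it Sall2 and Tcf15 did not overlap but were close, at 6.95 and 6.89 in their nearest libraries, and Zic5 (3.39 and 2.83) overlapped Pou3f1 (4.24 and 3.31) and lay just above Foxd3 (2.76 and 2.26). After ATRA it was Zic2 (38.8), Sall2 (30.3), Pou3f1 (10.6), Tcf15 (5.98), Zic5 (1.30), Otx2 (0.404) and Foxd3 (0.139), and Zic2, with libraries at 12.5 and 65.0, overlapped Sall2.

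**Figure D2:**
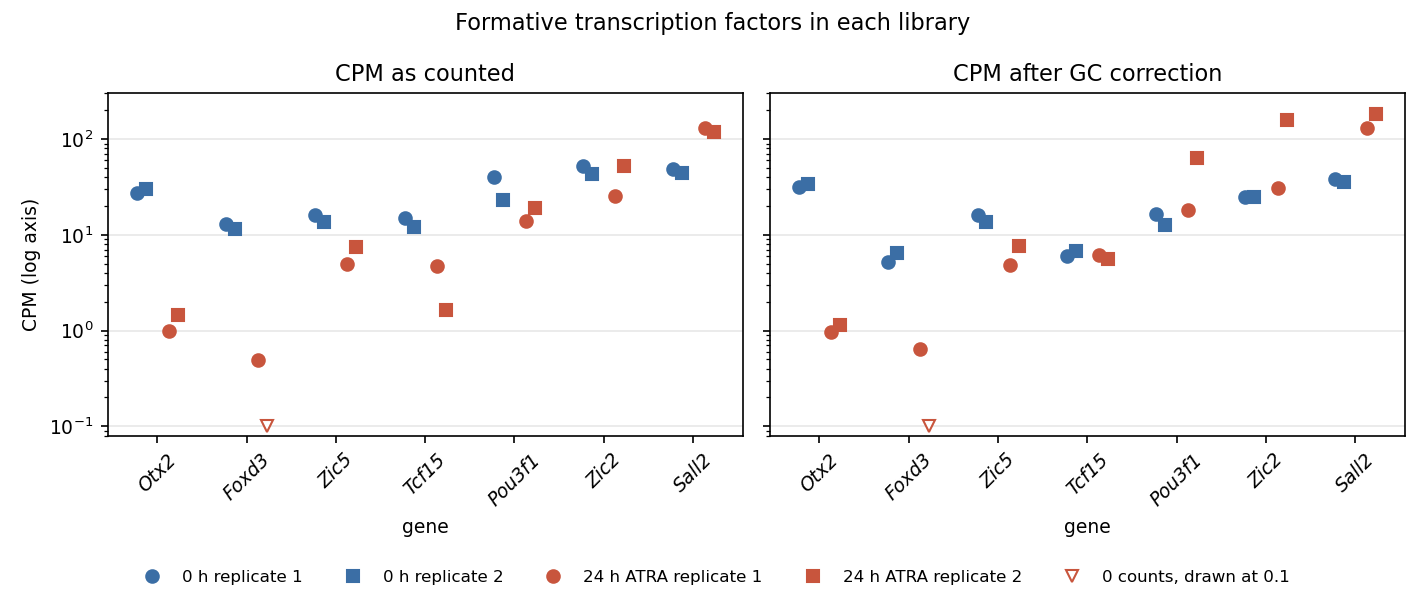
Level of each factor in each library in CPM on a log axis, as deposited and after the GC correction, with 1 point per library. Otx2 lies near 30 CPM in both controls and near 1 CPM in both ATRA libraries, and the open triangle marks Foxd3 in ATRA replicate 2, which had 0 counts.

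Without correction, 2 of the 7 factors were lower with ATRA and 0 were higher (edgeR's quasi-likelihood F test, Benjamini-Hochberg adjustment over 14256 genes, threshold 0.05), where 0.407% of all genes tested were called lower and 0.723% higher. With the GC correction 3 were lower (Otx2, Foxd3 and Zic5) and 1 was higher (Sall2), where 7.69% of all genes were called lower and 8.52% higher. At an unadjusted p under 0.05, 5 of the 7 passed without correction (Sall2 higher, and Otx2, Foxd3, Zic5 and Tcf15 lower), as did 5941 of all 14256 genes, and 6 passed with it (all but Tcf15), as did 5447. The median log2 fold change over the 7 was -1.26 without correction and -0.11 with it, against -0.02 and 0.01 over all genes tested. All 7 passed the filter on low counts. Where groups are said below not to overlap, this describes 2 libraries against 2 and is weak evidence by itself. The share of all genes without overlap was not computed.

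**Figure D3:**
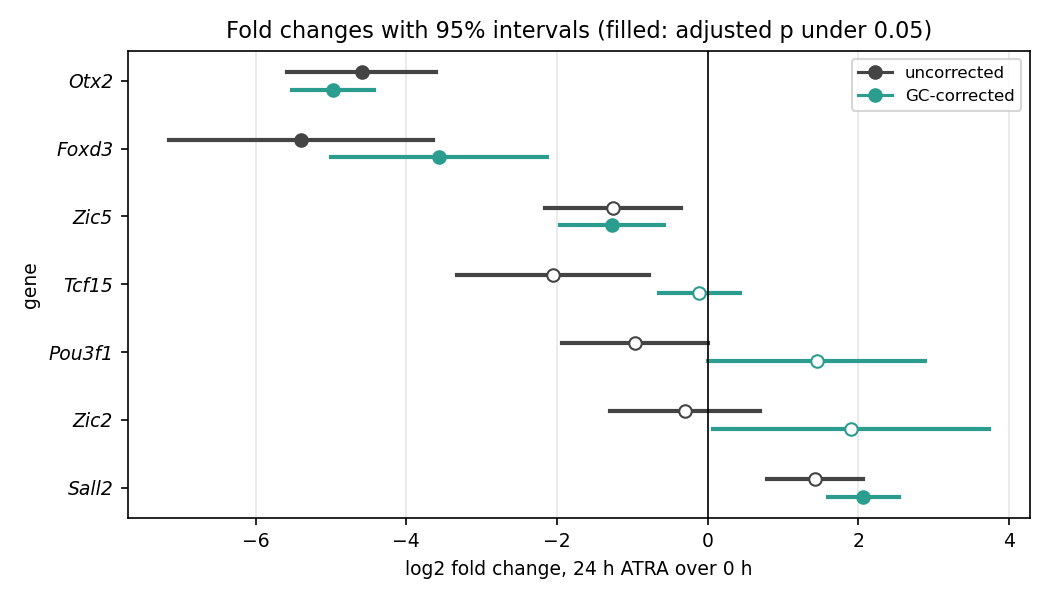
Log2 fold change of ATRA over control for each factor with its 95% interval, from the counts as deposited and after the GC correction, with filled points for adjusted p under 0.05. Otx2 and Foxd3 lie far below 0 in both fits, while Zic2 and Pou3f1 lie below 0 in the first and above it in the second.

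Otx2, the homeodomain factor that opens formative enhancers and later patterns the anterior brain, fell to a few percent of its starting level. It had 27.4 and 30.4 CPM in the controls and 0.989 and 1.44 CPM in the ATRA libraries, each of which held 14 counts. The groups did not overlap, and the gap between them was far wider than either pair's spread. Otx2 fell by 4.59 ± 0.41 on the log2 scale (SE; 95% interval -5.58 to -3.60), 24.1-fold lower, with an edgeR adjusted p of 0.0196. Of 14256 genes, 27 had a lower fold change. After correction it fell by 4.97 ± 0.22, with an edgeR adjusted p of 0.00187. Its GC lies near the lower middle of genes, and genes within 1 percentage point of it had a median log2 fold change of 0.41, opposite in sign to that of Otx2. Otx2 was called in all 18 settings run, between -5.08 and -4.33. In bulk RNA, fewer cells with a transcript and less of it in each cell cannot be told apart.

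The profile nearest to that of Otx2 over the 4 libraries was Enpp2, which encodes the secreted enzyme autotaxin, at 28.6 and 28.8 CPM against 1.27 and 1.86 CPM (Euclidean distance 0.356 on centred log2 CPM, among 10824 genes). The next was T (brachyury), the mesoderm and primitive streak factor, at 147.0 and 121.6 CPM against 8.05 and 11.9 CPM (distance 0.778).

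Foxd3, a forkhead factor that acts in the exit from naive pluripotency, was nearly lost. It had 418 and 260 counts in the controls, 13.1 and 11.6 CPM, against 7 counts (0.494 CPM) and 0 counts in the ATRA libraries. Without correction, ATRA replicate 1 was 24.9-fold below the control mean, and replicate 2, with a floor of 3 counts or 0.309 CPM, was at least 39.9-fold lower. These folds do not hold on the corrected scale, where the controls had 5.26 and 6.41 CPM and the ATRA libraries 0.644 and 0 CPM. The gap was narrower there for replicate 1, and no corrected bound was computed for replicate 2. Foxd3 fell by 5.40 ± 0.72 on the log2 scale (95% interval -7.15 to -3.64) with an edgeR adjusted p of 0.0399. That call turned on how edgeR computes deviances: with the older deviances, the package's default, the adjusted p was 0.0627. With the GC correction Foxd3 fell by 3.57 ± 0.58 with an edgeR adjusted p of 0.0221, and without control replicate 1 or control replicate 2 the fold change was -3.75 or -3.48 and the p 0.154 or 0.145. Those fits, like the ones given for Sall2 and Zic5, hold 1 control library and take the spread from the ATRA pair. The 44 genes of like GC had a median log2 fold change of -2.11, with 5% of them below -4.28, a limit set by few genes. Foxd3 lay below both, and the part of base composition in its size was not tested. The profiles nearest to Foxd3 were those of Tfeb and Zfp296, at distances of 1.12 and 1.17, less close than for any other of the 7.

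Sall2, a zinc finger factor of the spalt family, was the one factor with higher levels in both ATRA libraries in both fits. It had 48.3 and 44.0 CPM in the controls and 129 and 120 CPM in the ATRA libraries, with no overlap and a narrow spread in each pair. The difference was 1.43 ± 0.26 on the log2 scale (95% interval 0.79 to 2.07), or 2.70-fold, with an edgeR adjusted p of 0.0578, just short of the threshold. With the GC correction Sall2 rose by 2.07 ± 0.19 (4.20-fold) with an edgeR adjusted p of 0.00913. Genes of like GC had a median log2 fold change of -0.58 and a 95th percentile of 0.90, and Sall2 lay above both. Without control replicate 1 or control replicate 2 the corrected difference was 2.11 or 2.00 with edgeR adjusted p of 0.0867 or 0.0954. The nearest profile was that of Ddc, which encodes the decarboxylase that makes dopamine and serotonin, at 22.4 and 22.1 CPM against 66.1 and 61.9 CPM.

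Sall1, another member of the spalt family, had 226 ± 11.3 CPM (SD, n = 2) in the controls and 110 ± 1.15 CPM with ATRA, and passed the test with the GC correction (log2 difference -0.76 ± 0.14, edgeR adjusted p 0.0293) and not without it (0.0673). The ratio of Sall2 to Sall1 in CPM was 0.207 and 0.202 in the controls and 1.18 and 1.08 with ATRA. With the GC correction it was 0.181 in both controls and 1.21 and 1.35 with ATRA, and the difference between the genes was not tested. Sall4, a pluripotency factor at 253 CPM in the controls, had log2 fold changes of -0.40 and 0.45 in the 2 fits and passed in neither. Sall3 likewise passed in neither.

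Zic5 and Zic2 encode zinc finger factors of the Zic family from one locus. Zic5 had 16.0 and 13.6 CPM in the controls and 4.94 and 7.52 CPM with ATRA. The groups did not overlap, but the log2 difference of -1.26 ± 0.37 (95% interval -2.16 to -0.36) missed the threshold without correction, with an edgeR adjusted p of 0.0784. With the GC correction Zic5 fell by 1.27 ± 0.28, 2.41-fold, with an edgeR adjusted p of 0.0412, and without control replicate 1 or control replicate 2 the fold change was -1.14 or -1.40 and the p 0.278 or 0.203. Its GC lies at the middle of genes, and the correction left its fold change as it was. The nearest profile was that of Fetub, at 7.55 and 6.59 CPM against 2.33 and 3.61 CPM.

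Zic2 had 52.8 and 42.8 CPM in the controls and 25.6 and 52.5 CPM with ATRA, so the groups overlapped and ATRA replicate 2 matched the higher control. The log2 difference was -0.30 ± 0.41 (95% interval -1.30 to 0.70) with an edgeR adjusted p of 0.579. After the GC correction Zic2 had 24.8 and 24.9 CPM in the controls and 30.5 and 159 CPM with ATRA, a difference of 1.91 ± 0.72 with an edgeR adjusted p of 0.121. The ATRA libraries disagreed about Zic2 against the trend of its base composition. Its log2 ratio of replicate 2 to replicate 1 was 1.03, where 633 genes of like GC had a median of -1.32 and a 95th percentile of 0. Without ATRA replicate 1 the corrected log2 difference was 2.68 (edgeR adjusted p 3.00e-14), and without ATRA replicate 2 it was 0.30 (edgeR adjusted p 0.0730). Without correction, leaving out ATRA replicate 2 gave -0.90 (edgeR adjusted p 0.00199) and leaving out ATRA replicate 1 gave 0.11.

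The ratio of Zic2 to Zic5 in CPM was 3.30 and 3.15 in the controls and 5.17 and 6.97 with ATRA, and with the GC correction it was 1.54 and 1.85 against 6.30 and 21.0. The ratio was higher in both ATRA libraries on both scales, and the difference between the genes was not tested. Of the family relatives, Zic1 passed in neither, and Zic4 had 3 counts over the controls and 0 over the ATRA libraries.

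Pou3f1, the POU factor Oct6 that marks primed epiblast and promotes neural fate, had 40.7 and 23.0 CPM in the controls and 14.1 and 18.9 CPM with ATRA. The groups did not overlap, but the controls differed from each other by more than the nearest control and ATRA libraries did. The log2 difference was -0.96 ± 0.39 (95% interval -1.93 to 0.01) with an edgeR adjusted p of 0.122. After the GC correction the values were 16.3 and 12.7 CPM against 18.3 and 63.5 CPM, a difference of 1.45 ± 0.57 with an edgeR adjusted p of 0.129. Like Zic2, Pou3f1 had a higher share of reads in ATRA replicate 2 than in replicate 1 (log2 ratio 0.42), where 99 genes of like GC had a median of -1.30 and a 95th percentile of 0.31. The corrected log2 difference was 2.11 without ATRA replicate 1 (edgeR adjusted p 7.46e-08) and 0.34 without ATRA replicate 2 (edgeR adjusted p 0.201). Of its relatives, Pou3f4 had 33 counts over the controls and 1 over the ATRA libraries and passed in neither fit, and Pou3f2 and Pou3f3 were too low to test.

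Tcf15, a basic helix-loop-helix factor that primes stem cells for differentiation and later forms somites, had 15.0 and 12.2 CPM in the controls and 4.73 and 1.65 CPM with ATRA. The groups did not overlap. The log2 difference was -2.05 ± 0.52 (95% interval -3.32 to -0.77) with an edgeR adjusted p of 0.0693. Genes of like GC, of which there were only 34, had nearly the same median, -1.91. After the GC correction the 4 libraries had 6.02 and 6.76 CPM against 6.17 and 5.56 CPM, and the difference was -0.11 ± 0.21 (95% interval -0.64 to 0.43) with an edgeR adjusted p of 0.741. The nearest profiles were those of Git1 and Klhdc4, at distances of 0.0159 and 0.0503. Id proteins block factors of this class by taking up their E-protein partners. Id2 had a log2 fold change of 1.20 without correction (edgeR adjusted p 0.0767) and rose by 0.57 ± 0.14 with it (edgeR adjusted p 0.0493). Id1, Id3 and the partners Tcf3, Tcf4 and Tcf12 passed in neither edgeR fit. DESeq2, which called 30.5% of all genes, called Id2 and Tcf12 higher and Id3 and Tcf3 lower.

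**Figure D4:**
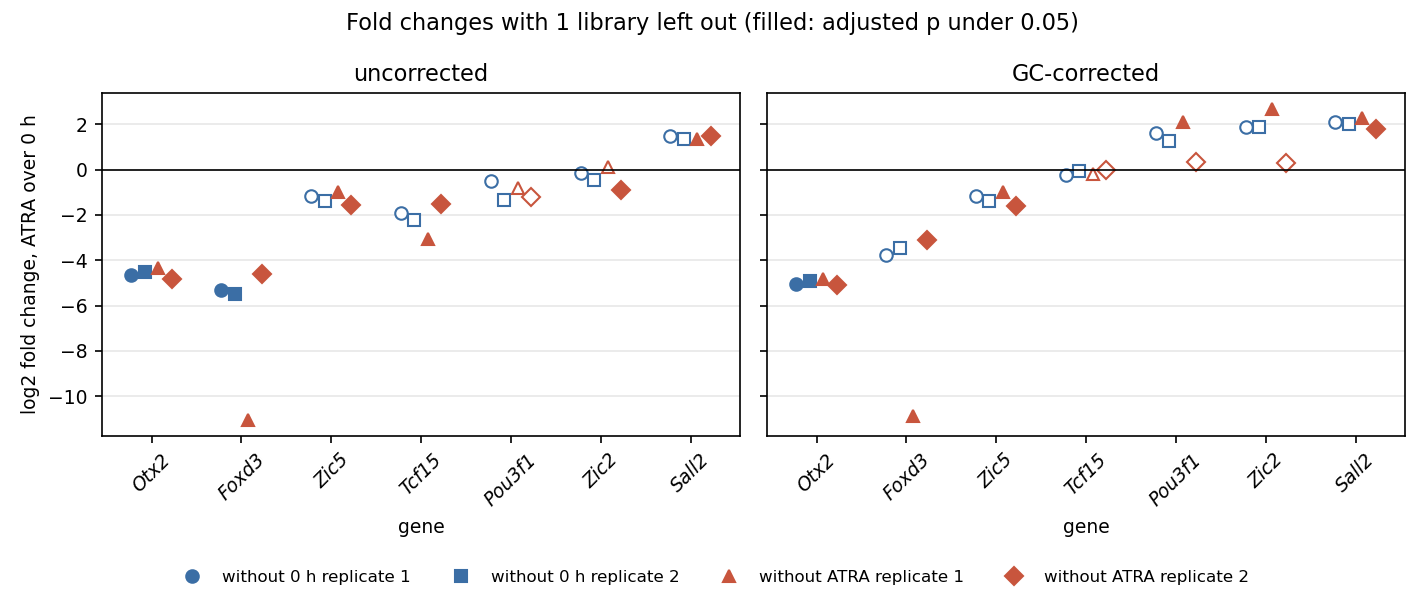
Log2 fold change of each factor with each of the 4 libraries left out in turn, as deposited and after the GC correction, filled where adjusted p is under 0.05. Otx2 stays between -5.08 and -4.33, while the corrected value of Zic2 runs from 0.30 without ATRA replicate 2 to 2.68 without ATRA replicate 1, and Foxd3 at -11.05 and -10.88 without ATRA replicate 1 rests on a library at 0 counts.

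Other settings changed how many of the 7 were called. DESeq2 called 4 lower (Otx2, Foxd3, Zic5 and Tcf15) and 1 higher (Sall2), where it called 30.5% of all genes, and the replicate block called the same numbers, where 30.9% of genes were called. The block with the GC correction called 3 lower and 1 higher (17.7% of genes). Size factors of DESeq2 in edgeR called 2 lower and 1 higher (4.23%), and no low-count filter 2 lower (0.922%). Total counts, a floor of 5 CPM in 2 libraries, and the older deviances each called Otx2 alone (0.175%, 0.756% and 0.603% of genes). Without control replicate 1 or control replicate 2, 2 were lower (0.874% and 4.59% of genes), or 1 with the GC correction (0.203% and 0.256%). Without ATRA replicate 1, 4 were lower and 1 was higher (69.0% of genes), or 3 and 3 with the GC correction (44.8%). Without ATRA replicate 2, 5 were lower and 1 was higher (48.9%), or 3 and 1 with the GC correction (33.4%). The lone ATRA library in these last fits is assumed to vary like the control pair, and their counts are read against those high backgrounds.

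Among 12 other genes of the formative and primed epiblast, 1 fell without correction, the de novo DNA methyltransferase Dnmt3b (626 ± 38.3 CPM to 145 ± 4.55 CPM, SD, n = 2; log2 fold change -2.11 ± 0.27, edgeR adjusted p 0.0363, and -1.48 with the GC correction). Once GC was corrected for, Dnmt3b, the growth factor Fgf5, the ETS factor Etv5 and the epithelial factor Grhl2 fell, and Sox3 and Tead2 rose. The last 2 changed sign with the correction, Sox3 from -0.19 to 1.79 and Tead2 from -0.09 to 1.39, and Sox3, at 66.4% GC, lies where the correction was held constant. Fgf5, the usual marker of the primed state, had 18.7 and 17.5 CPM in the controls and 3.04 and 5.67 CPM with ATRA (log2 fold change -2.08 without correction and -2.46 ± 0.26 with it, edgeR adjusted p 0.0611 and 0.0114). Over all genes tested, edgeR called 0.407% lower without correction, and 7.69% lower and 8.52% higher with it. Without correction 7 of the 12 were lower and 0 higher at an unadjusted edgeR p under 0.05, where 5941 of 14256 genes passed in either direction. DESeq2 called the same 7 lower and 0 higher, where it called 30.5% of all genes. With the GC correction 5 were lower and 3 higher at an unadjusted edgeR p under 0.05, where 5447 genes passed. The median over the 12 was -1.12 without correction and -0.29 with it. Of 14 family relatives 6 could be tested: edgeR called 0 without correction and Sall1 alone with it. Without correction 3 were lower at an unadjusted edgeR p under 0.05, where 5941 of 14256 genes passed in either direction. DESeq2, which called 30.5% of all genes, called Sall1 lower.

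Over all genes tested, 5941 of 14256 passed edgeR's test at an unadjusted p under 0.05 without correction, and DESeq2 called 30.5%. By adjusted p, edgeR called 0.407% lower and 0.723% higher without correction, and 7.69% lower and 8.52% higher with it. Of 13 inputs and partners, 0 passed edgeR's adjusted test without correction. At an unadjusted p under 0.05, 3 were higher and 5 lower, and DESeq2 called the same numbers. After the GC correction Id2, the receptor Fgfr1 and the Nodal effector Smad3 rose, and Fgf4, the Nodal co-receptor Tdgf1 and Pou5f1 fell. Fgfr1 changed sign, from -0.54 to 0.48. Pou5f1, the partner of Otx2 at enhancers, had a log2 fold change of -2.61 without correction (edgeR adjusted p 0.0621) and fell by 1.27 ± 0.14 with it (edgeR adjusted p 0.0114), and Sox2 passed in neither fit. Of 10 naive genes, Klf2, Esrrb and Zfp42 fell without correction, where 9 were lower at an unadjusted p under 0.05 and DESeq2 called 7 lower. With it Klf2 had a value of 0.13, and Klf5, Tfcp2l1, Esrrb, Zfp42, Nanog and Prdm14 fell and Tbx3 rose.

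Otx2 and Gbx2 meet at the midbrain-hindbrain boundary of the embryo, where Fgf8 is the signal, so 14 anterior neural and boundary genes were set beside Otx2, of which 9 could be tested. Fgf8 fell in both fits, from 7.71 ± 0.622 to 0.492 ± 0.404 CPM (log2 fold change -3.84 ± 0.55, edgeR adjusted p 0.0468). Its corrected log2 fold change was -1.99 (3.97-fold, against 14.3-fold; edgeR adjusted p 0.0395), and its GC of 62.8% lies where the correction was held constant. Sox1, an early neural plate gene, rose in both, from 1.58 ± 0.0279 to 27.3 ± 4.89 CPM (log2 fold change 4.10 ± 0.37, edgeR adjusted p 0.0196), with a corrected value of 5.69. Gbx2, Pax6 and Lhx2 passed edgeR's test, higher, with the GC correction and not without it, and DESeq2 called Pax6 and Lhx2 higher without it. Six3, Rax, Lhx5, Pax2 and Wnt1 were too low to test. The median over the 9 was 0.77 without correction and 1.46 with it.

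**Figure D5:**
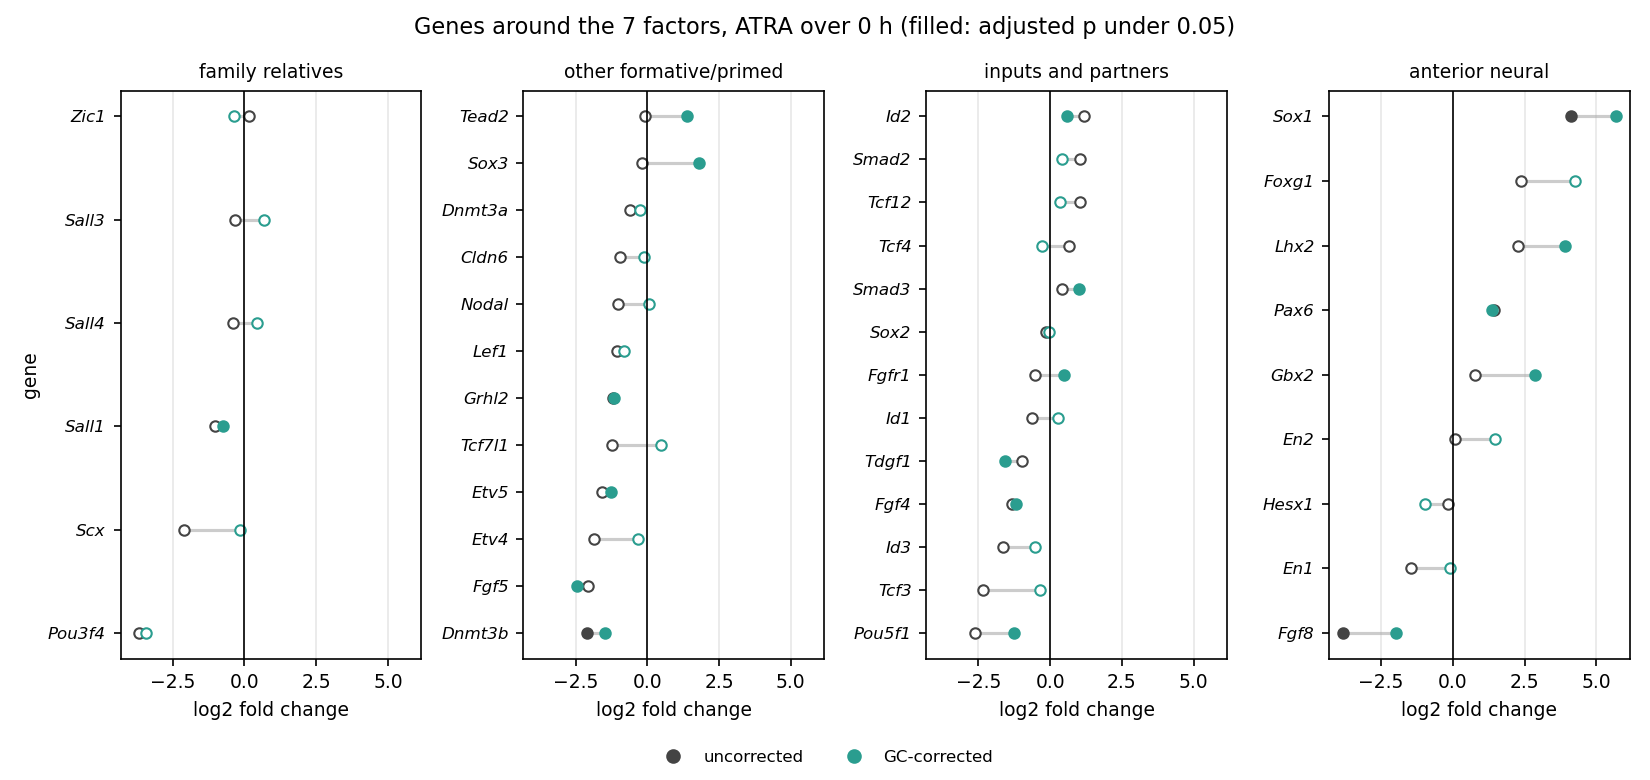
Log2 fold change (x axis) of each tested gene among family relatives, other formative and primed genes, inputs and partners, and anterior neural and boundary genes, as deposited (dark) and after the GC correction (green), filled where adjusted p is under 0.05. Before correction only Dnmt3b, Sox1 and Fgf8 are filled.

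Markers of other cells moved too, and their part in the members' differences was not tested. The summed level of 6 embryonic stem cell markers was 3215 to 3235 CPM in the controls and 1262 to 1584 CPM with ATRA. The sum of 6 mesoderm markers was 155.8 to 182.7 CPM in the controls and 18.1 to 26.2 CPM with ATRA, and T, which fell in both fits, made up most of the control sum. Sums of 6 markers each were 25.5 to 25.8 CPM against 52.7 to 79.8 CPM for primitive endoderm, 25.4 to 25.6 against 39.0 to 49.3 CPM for neural crest, and 154.3 to 214.7 against 107.7 to 107.9 CPM for fibroblasts. Dab2 held most of the primitive endoderm sum (21.7 and 22.3 CPM, then 42.3 and 66.4 CPM with ATRA). Ets1 held most of the neural crest sum (19.3 and 21.1 CPM, then 30.6 and 40.9 CPM). Without correction edgeR called 0 of the 5 tested markers in either list. With it 4 primitive endoderm markers and 1 neural crest marker were higher, where 8.52% of all genes were. DESeq2, which called 30.5% of genes, called 3 and 0 higher. Col1a1 held most of the fibroblast sum in the controls, and after the GC correction that sum was 101.2 to 122.2 CPM against 116.3 to 215.7 CPM, with Dcn and Pdgfra higher. Corrected sums of the tested markers kept the direction of the uncorrected ones for stem cells (2898 to 2988 against 1280 to 1585 CPM), mesoderm (135.6 to 158.3 against 18.2 to 35.4 CPM), primitive endoderm (28.6 to 28.9 against 51.5 to 75.0 CPM) and neural crest (28.0 against 38.4 to 41.1 CPM). None of these 30 markers was at 0 in all libraries, and Msgn1 was at 0 in both ATRA libraries.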

How the data were processed

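RNA of 2 libraries of E14 cells at 0 h and 2 after 24 h of ATRA was analysed, grouped by sample title. The dose follows the titles, in micromolar, where a treatment label has millimolar. The authors deposited raw whole-number read counts per gene. Build mm10 and the tools HTSeq 0.6.0, TopHat2 2.0.7, Cuffdiff 2.0.2 and Cufflinks 2.0.2 come from the submitters' processing notes, which give no order. Annotation and strand setting: not given in the sources used here. Each table's 5 summary lines entered neither library sizes nor tests. Reads in no gene made up 63.4% to 66.2% of counted reads. Floors of 3 counts cover counting error only.

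Counts were tested with edgeR 4.0.16 in R 4.3.3 (default expression filter, TMM, robust quasi-likelihood fit, no covariate, Benjamini-Hochberg adjustment over all 14256 genes). The package's default, older deviances were run first and called 86 genes. The newer deviances, which call 161, were made the reported fit after several combinations of settings had been tried and both results were seen, because they gave the same count as an earlier analysis of these data. That choice decides the uncorrected call of Foxd3. CPM use TMM-scaled library sizes, SEs are the log2 fold change over the root of its F statistic, and intervals cover 95%. The GC correction was a natural spline of 5 degrees of freedom per library, fitted by robust regression (MASS 7.3-60.0.1) to 12070 genes with a mean log2 CPM over 1 and entered as offsets. GC came from GENCODE M21, which gave 14137 of the tested genes a value, and the others were left uncorrected. DESeq2 1.42.0, other normalizations and filters, a replicate block and leaving out each library were alternatives. The fits were also run on simulated counts. Those had no GC trend or a trend in a single ATRA library, unlike the data, and no result given here rests on them.

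The members and lists were chosen with earlier results of these data known. Named genes are the 7 factors, the called and the most abundant genes of 5 lists (family relatives, other formative genes, inputs and partners, anterior neural genes, naive genes), 3 retinoic acid targets, and the 2 genes nearest to each factor by Euclidean distance of centred log2 CPM (prior count 2) among genes with a mean of at least 5 CPM. Genes named beyond that rule (uncalled family relatives, Id and E-protein genes, Sox2, and the markers Msgn1, Dab2, Ets1, Col1a1, Dcn and Pdgfra) were named after their values were seen. Listed genes withheld from this text are not reported here and were left out of the list counts. RefSeq windows matched Otx2, Foxd3, Sall2 and Zic5 of the 7.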

Additional observations from a re-analysis of the deposited data

How the results depend on the processing

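Otx2 kept its direction and its call in all 17 alternatives. Foxd3 kept its direction in all 17 and its call in 12, losing it with total counts (adjusted p 0.0911 in edgeR), the floor of 5 CPM (0.0556), the older deviances (0.0627; these are the package's default and were run first, and the reported ones were chosen after both results were seen) and the GC correction without either control. Sall2 and Zic5 kept their direction in all 17 and gained a call in 9 and 8, and Tcf15 gained one in 4. DESeq2 and the replicate block, where each of these genes gained a call, called 30.5% and 30.9% of all genes. Fits without 1 ATRA library gave the other gains of Tcf15, against the high backgrounds given earlier. The counts below with 1 library left out are to be read against those backgrounds too. Against 2 factors lower, 0 higher and 1 other formative gene called, the GC correction gave 3 lower, 1 higher and 6 others, DESeq2's size factors 1 higher and 2 others, total counts 1 lower and 0 others, the 5 CPM floor 1 lower, the older deviances 1 lower, and DESeq2 4 lower, 1 higher and 7 others. Same-numbered libraries deviated together with a correlation of 0.18 (-0.04 with the GC correction), which with 2 pairs does not show pairing. The replicate block gave 4 lower, 1 higher and 8 others, and with the GC correction 3 lower, 1 higher and 6 others. Leaving out 1 library gave 2 to 5 lower, 0 to 1 higher and 0 to 11 others, or with the GC correction 1 to 3, 0 to 3 and 0 to 8. Without ATRA replicate 1 or ATRA replicate 2 the lower count was 4 or 5. Pou3f1 reversed in the 6 settings with the GC correction, to 1.45, to 1.23 with the block, and with 1 library left out to 1.61 and 1.26 (controls 1 and 2) and 2.11 and 0.34 (ATRA 1 and 2). Zic2 reversed to 1.91, to 1.49 with the block, with 1 library left out to 1.88 and 1.89 (controls 1 and 2) and 2.68 and 0.30 (ATRA 1 and 2), and to 0.11 without ATRA replicate 1 and without correction; without ATRA replicate 2 it was -0.90 and passed. The cause was not tested. The fitted Foxd3 value without ATRA replicate 1, -11.05, rests on a lone library at 0 counts and is no bound. The shallower ATRA libraries, at 0.212 and 0.309 CPM for 3 counts, limit Foxd3 most.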
